A study of Rattus norvegicus with 12 samples.

Results

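Transcript levels of 6 secreted factors that bring monocytes and related leukocytes into tissue, or keep them there, were followed in rat kidney. The genes were Ccl2, Ccl7, Ccl5, Ccl20, Cx3cl1 and Csf1. They were taken by symbol from the deposited gene table, where all 6 were found once each among 20455 genes with reads. Csf1 is a growth factor and not a chemokine, and Ccl20 mainly attracts lymphocytes and dendritic cells, so the 6 form a functional set and not 1 protein family. RNA-seq had been done on kidney tissue of 12 samples in 3 groups of 4: cardiopulmonary bypass with nitrite (CPB+Nitrite), cardiopulmonary bypass alone (CPB) and sham. Bypass passes the blood through an external circuit that takes over from heart and lung, and kidney injury is a known complication. The study set bypass against sham for the injury, and nitrite with bypass against bypass alone for protection. The labels name the tissue and the treatment, and the strain, sex, age, nitrite dose, bypass duration and time of sampling are not given in the sources used here. Whether the 4 samples of a group came from 4 animals is not stated either, so the p-values measure the spread between these samples, which may be technical.

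As background, Ccl2 and Ccl7 are neighbouring CC chemokines that signal through Ccr2 and draw monocytes out of the blood. Ccl5 attracts monocytes and T cells. Ccl20 is the chemokine ligand of Ccr6. Cx3cl1, fractalkine, is made as a membrane protein by endothelium and epithelium, and metalloproteases shed it as a soluble ligand of Cx3cr1, the receptor carried by patrolling monocytes and resident kidney macrophages. Csf1 binds Csf1r and supports the survival and growth of monocytes and macrophages, and Il34 is the other ligand of that receptor. In kidney, injured tubule cells are a known source of several of these factors.

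The stretch of 250 bases upstream of the start matched 3 of the 6 members in the RefSeq table (build GRCr8). These sequences are shown because inflammatory chemokine genes are classical targets of NF-kappaB and AP-1, whose transcripts are given further on. Both strands were searched for the NF-kappaB consensus and for the AP-1 letters TGANTCA, the TATA letters TATAAA and the IRF letters GAAANNGAA. Capitals mark the matches.
Ccl7 (chr10:67513845-67514094, plus strand): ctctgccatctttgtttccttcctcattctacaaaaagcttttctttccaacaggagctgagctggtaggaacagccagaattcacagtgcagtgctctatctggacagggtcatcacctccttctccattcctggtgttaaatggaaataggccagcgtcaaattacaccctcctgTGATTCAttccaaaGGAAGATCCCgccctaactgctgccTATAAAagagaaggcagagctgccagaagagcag
Ccl20 (chr9:91836909-91837158, plus strand): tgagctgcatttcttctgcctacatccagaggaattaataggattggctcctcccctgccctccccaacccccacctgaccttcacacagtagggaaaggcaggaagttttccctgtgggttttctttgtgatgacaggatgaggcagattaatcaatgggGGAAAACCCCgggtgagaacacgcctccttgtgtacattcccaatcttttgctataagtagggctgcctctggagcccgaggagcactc
Cx3cl1 (chr19:10242821-10243070, minus strand, written along the gene): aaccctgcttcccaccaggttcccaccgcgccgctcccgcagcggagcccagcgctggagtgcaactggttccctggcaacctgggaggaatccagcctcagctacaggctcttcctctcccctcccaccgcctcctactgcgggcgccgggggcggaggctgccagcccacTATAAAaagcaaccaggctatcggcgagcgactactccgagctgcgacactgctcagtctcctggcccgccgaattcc
The Ccl7 stretch held 1 AP-1 match beginning at position -73, 1 NF-kappaB match at -59 and 1 TATA match at -34, none of which overlapped. In the Ccl20 stretch the search found 1 NF-kappaB match at -89. The Cx3cl1 stretch held 1 TATA match at -78. The IRF letters were in none of the 3 stretches. Over 27457 rat promoters of the same length, 6.41% held the NF-kappaB consensus, 6.36% the AP-1 letters, 13.1% the TATA letters and 7.99% the IRF letters. These matches describe letters and do not show binding.

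The libraries held 16836944 to 25775917 estimated reads. Levels are given as CPM, the count relative to its library's total in the usual depth-scaled unit, with totals adjusted by trimmed-mean (TMM) factors of 0.887 to 1.11. Markers of kidney epithelium and podocytes were present in every library, with summed levels of 5637 to 11700 CPM in CPB+Nitrite, 7226 to 11010 CPM in CPB and 10670 to 13440 CPM in sham. One library stood apart. CPB+Nitrite 2 had 298.5 CPM of Umod, the thick ascending limb protein uromodulin, against 3759 to 7016 CPM in the other 11 libraries, and 2758 CPM of Aqp2, the collecting duct water channel, against 308.1 to 989.1 CPM. Its endothelial markers summed to 2344 CPM, against 208.6 to 376.5 CPM in the other CPB+Nitrite libraries, 135.3 to 254.2 CPM in CPB and 160.7 to 383.2 CPM in sham. Plvap alone made up 1381 CPM of that sum. The endothelial markers in the sum were highest in this library except Cdh5 and Flt1. Cdh5 was 61.2 CPM there and 68.1 CPM in CPB+Nitrite 4, and Flt1 was 72.2 CPM there and 98.0 CPM in CPB 4. The erythrocyte markers of CPB+Nitrite 2 summed to 8140 CPM, against at most 4046 CPM elsewhere. The highest urothelium sums were 114.1 CPM in CPB+Nitrite 1 and 165.6 CPM in sham 1, and sham 1 also had the highest adipocyte sum (338.9 CPM). Values of the members, Csf1r, Cx3cr1 and Il34 without CPB+Nitrite 2 are given beside their results, and the part of tissue make-up in the results was not tested.

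In CPB kidneys 5 of the 6 members rose against sham, and Ccl20 did not pass the test. The rise was 22.7-fold for Ccl2 and 22.5-fold for Ccl7, 7.18-fold for Ccl5, 4.79-fold for Csf1 and 2.45-fold for Cx3cl1. All 5 had CPB and sham groups that did not overlap. Of 14664 genes tested, 43.2% passed in either direction and 21.7% rose, and 48.2% had groups that did not overlap. The median log2 change was 2.55 over the 6 members and -0.05 over all genes tested. The members were chosen with earlier results of these data known, so their counts and medians are descriptions. Passing means an adjusted p below 0.05 from edgeR's quasi-likelihood test over all genes. Without CPB+Nitrite 2 the same count of 5 was reached. In bulk tissue, more cells of a type and more RNA per cell cannot be told apart.

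With nitrite no member passed a test against bypass alone, and no gene did so in the whole table (0 of 14664, 0.0%; 4315 genes had an unadjusted p below 0.05). All 6 members had lower fitted levels in CPB+Nitrite than in CPB, and 3 of them (Ccl5, Cx3cl1 and Csf1) had an unadjusted p below 0.05. The median log2 change was -0.62 over the members and 0.05 over all genes. Groups overlapped for all 6, while 12.7% of all genes had groups that did not. The count over all genes depended on the tool: DESeq2 called 2235 genes and 2 members, Ccl5 (log2 change -1.56, adjusted p = 0.0264) and Cx3cl1 (-0.78, adjusted p = 0.0393), whereas limma called 1 gene and 0 members. It depended on CPB+Nitrite 1 as well. Without that library edgeR called 2865 genes and the same 2 members, Ccl5 at -2.16 (adjusted p = 0.0187) and Cx3cl1 at -1.02 (adjusted p = 0.021).

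Against sham, 2 members passed in CPB+Nitrite, Ccl2 and Ccl7, both higher. Of all genes 4.81% passed in either direction and 3.85% rose. No member had CPB+Nitrite and sham groups that did not overlap, against 11.5% of all genes. The median log2 change was 1.30 over the members and 0.04 over all genes. The 3 comparisons share their groups, so they are not independent of each other.

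**Figure D1:**
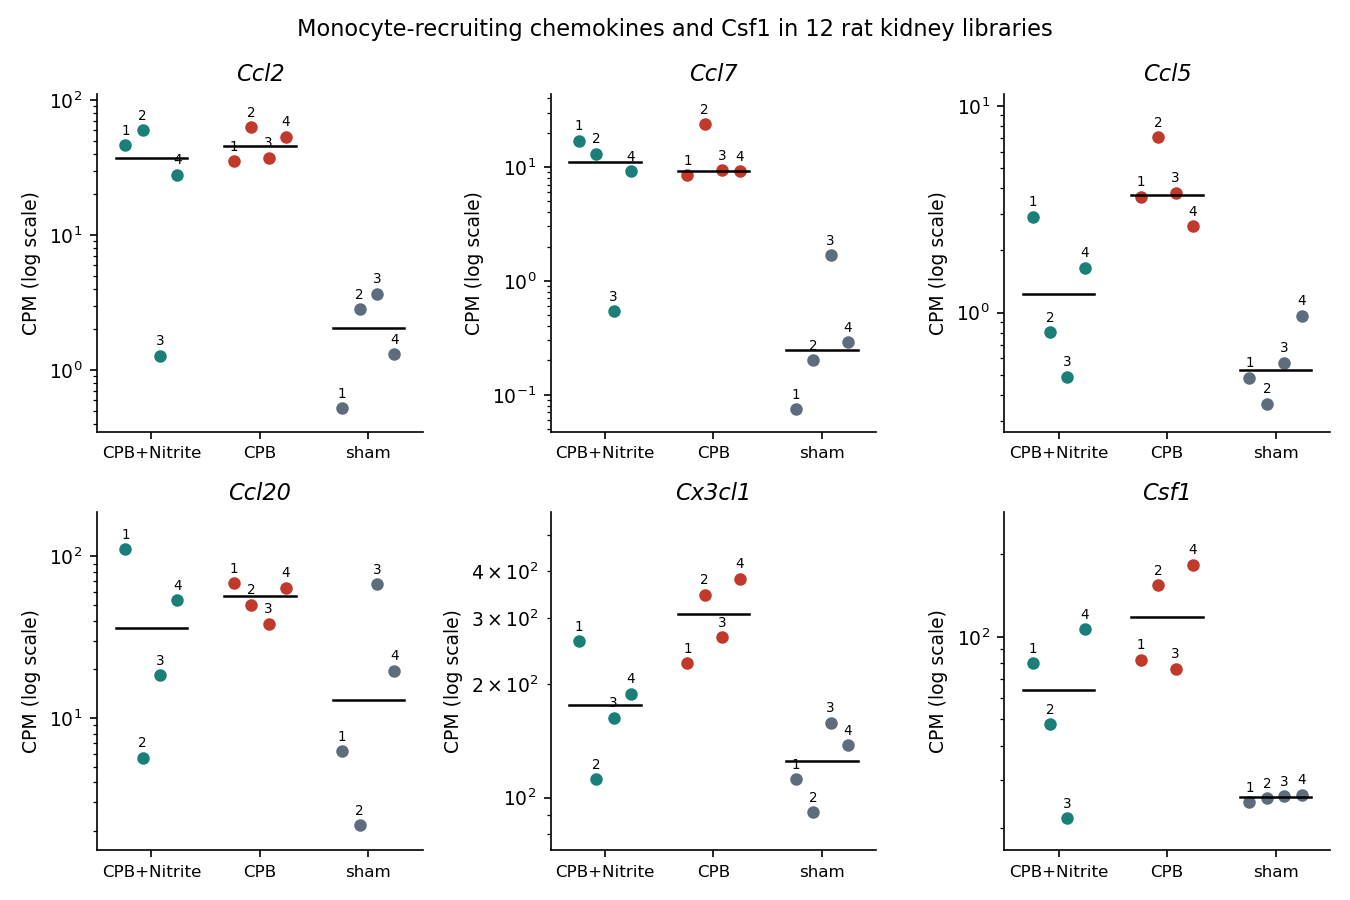
Levels of the 6 members in each library in CPM on a log axis, with CPB+Nitrite, CPB and sham from left to right. Numbers at the points are replicate numbers and bars are group medians. CPB libraries lie above every sham library except for Ccl20, and CPB+Nitrite 3 lies among or near the sham libraries.

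**Figure D2:**
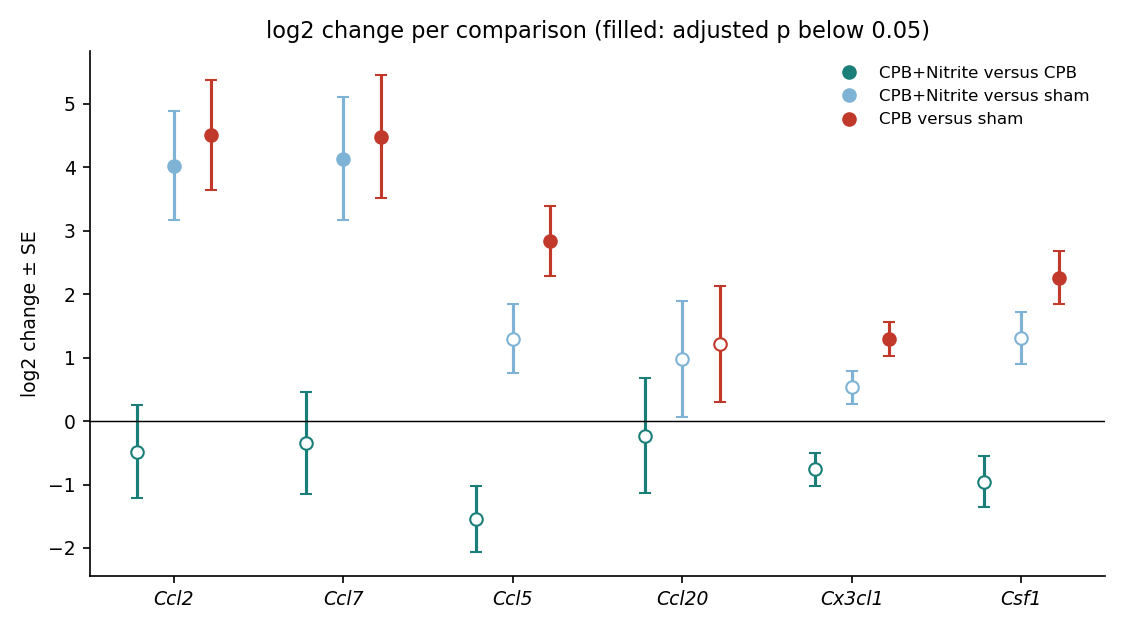
log2 change with its standard error for each member in CPB+Nitrite versus CPB, CPB+Nitrite versus sham and CPB versus sham. Filled points passed an adjusted p of 0.05 in edgeR's test over 14664 genes. Every point against CPB lies below 0 and is open.

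Ccl2 (ENSRNOG00000007159, chromosome 10, 67005424 to 67007226 on the plus strand in mRatBN7.2), the principal monocyte attractant, measured 46.4, 60.2, 1.27 and 28.1 CPM in the CPB+Nitrite libraries. The CPB libraries had 35.5, 63.0, 37.6 and 53.7 CPM. The sham libraries had 0.521, 2.82, 3.68 and 1.31 CPM, which rest on 14 to 90 reads. CPB+Nitrite 3 stood inside the sham range, and the other nitrite libraries stood far above it. CPB averaged 47.5 ± 13.2 CPM against 2.08 ± 1.43 CPM in sham (SD, n = 4 each), which is a log2 change of 4.51 ± 0.87 (SE, edgeR adjusted p = 0.00251). CPB+Nitrite averaged 34.0 ± 25.5 CPM, a log2 change of -0.48 ± 0.74 (SE) against CPB (edgeR adjusted p = 0.677) and of 4.03 ± 0.85 against sham (edgeR adjusted p = 0.0323). Without CPB+Nitrite 2 these 2 changes were -0.91 (adjusted p = 0.522) and 3.60 (adjusted p = 0.0232).

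Ccl7 (ENSRNOG00000000239, chromosome 10, 67016446 to 67018303 on the plus strand), which shares the receptor Ccr2, begins 9219 bases beyond the end of Ccl2. Its levels were 17.0, 13.0, 0.539 and 9.20 CPM in CPB+Nitrite and 8.49, 23.6, 9.40 and 9.18 CPM in CPB. Sham had 0.0745, 0.201, 1.68 and 0.290 CPM, from 2 to 41 reads. CPB+Nitrite 3 was again the only nitrite library within the sham range, and sham 3 was the highest sham library for both genes. The mean was 12.7 ± 7.29 CPM in CPB and 0.560 ± 0.749 CPM in sham (SD, n = 4 each), with a log2 change of 4.49 ± 0.98 (SE, edgeR adjusted p = 0.00432). In CPB+Nitrite it was 9.94 ± 7.04 CPM, which gave -0.35 ± 0.81 against CPB (edgeR adjusted p = 0.79) and 4.14 ± 0.97 against sham (edgeR adjusted p = 0.0403), or -0.50 (adjusted p = 0.767) and 3.98 (adjusted p = 0.0285) without CPB+Nitrite 2. Without sham 3 the log2 change in CPB against sham was 6.07, and it lay between 4.02 and 6.07 whichever single library was left out.

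The calls of Ccl2 and Ccl7 in CPB+Nitrite against sham were less firm than those in CPB. Fitting only these 2 groups gave an adjusted p of 0.118 for Ccl2 and 0.121 for Ccl7. Of 12 edgeR fits that each left out 1 library, 4 kept Ccl2 past the threshold (those without sham 3, CPB 1, CPB+Nitrite 2 or CPB+Nitrite 3) and 3 kept Ccl7 (those without sham 3, CPB+Nitrite 2 or CPB+Nitrite 3). In the fits without sham 1, sham 2, sham 4, CPB 2, CPB 3, CPB 4, CPB+Nitrite 1 or CPB+Nitrite 4 neither gene passed, with adjusted p of 0.0508 to 0.111 for Ccl2 and 0.0586 to 0.131 for Ccl7, and without CPB 1 that of Ccl7 was 0.0526. The log2 changes themselves stayed between 3.60 and 4.46 for Ccl2 and between 3.75 and 5.73 for Ccl7. Without CPB+Nitrite 3, Ccl5 (1.58, adjusted p = 0.0456) and Csf1 (1.59, adjusted p = 0.00643) passed as well, which made 4 members.

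Ccl5 (ENSRNOG00000010906, chromosome 10, 68322829 to 68327377 on the minus strand), a T cell and monocyte attractant, measured 2.92, 0.806, 0.490 and 1.65 CPM in CPB+Nitrite. In CPB it measured 3.64, 7.07, 3.80 and 2.61 CPM, and in sham 0.484, 0.362, 0.573 and 0.967 CPM from 9 to 20 reads. CPB+Nitrite 1 was within the CPB range, CPB+Nitrite 2 and 3 were within the sham range, and CPB+Nitrite 4 lay between. The means were 4.28 ± 1.93 CPM in CPB and 0.596 ± 0.262 CPM in sham (SD, n = 4 each), a log2 change of 2.84 ± 0.55 (SE, edgeR adjusted p = 0.00258). CPB+Nitrite averaged 1.46 ± 1.08 CPM, with a log2 change of -1.54 ± 0.52 against CPB (edgeR adjusted p = 0.0849) and 1.30 ± 0.54 against sham (edgeR adjusted p = 0.147). Without CPB+Nitrite 2 these were -1.34 (adjusted p = 0.197) and 1.51 (adjusted p = 0.0855).

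Ccl20 (ENSRNOG00000015992, chromosome 9, 84388904 to 84391629 on the plus strand), is the Ccr6 ligand. It measured 110.4, 5.68, 18.4 and 53.7 CPM in CPB+Nitrite, 68.3, 50.2, 38.2 and 63.8 CPM in CPB, and 6.22, 2.17, 67.3 and 19.6 CPM in sham. Sham 3 lay within the CPB range and CPB+Nitrite 1 above it, so all 3 groups overlapped. The means were 55.1 ± 13.7 CPM in CPB and 23.8 ± 29.9 CPM in sham (SD, n = 4 each), a log2 change of 1.21 ± 0.92 (SE, edgeR adjusted p = 0.295). Without sham 3 it was 2.57 (edgeR adjusted p = 0.0419), and limma with sample weights put it at 2.75 (adjusted p = 0.00778). Why limma differed from edgeR here was not tested. CPB+Nitrite averaged 47.1 ± 46.9 CPM, which gave -0.23 ± 0.90 against CPB (edgeR adjusted p = 0.883) and 0.98 ± 0.91 against sham (edgeR adjusted p = 0.503). Without CPB+Nitrite 2 the change against CPB was 0.14, of the opposite sign (adjusted p = 0.938), and that against sham was 1.35 (adjusted p = 0.279).

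Cx3cl1 (ENSRNOG00000016326, chromosome 19, 10227340 to 10236833 on the minus strand), the membrane-anchored ligand, was read from at least 2275 reads in every library. It measured 260.5, 112.0, 163.0 and 188.9 CPM in CPB+Nitrite, 227.7, 346.6, 267.0 and 382.2 CPM in CPB, and 111.7, 91.5, 158.1 and 138.0 CPM in sham. Only CPB+Nitrite 1 reached the CPB range, and CPB+Nitrite 2, the library with the highest endothelial marker sum (mostly Plvap), lay within the sham range. The part of endothelium in this was not tested. CPB averaged 306 ± 71.0 CPM and sham 125 ± 29.2 CPM (SD, n = 4 each), a log2 change of 1.29 ± 0.26 (SE, edgeR adjusted p = 0.00317). CPB+Nitrite averaged 181 ± 61.8 CPM, with -0.76 ± 0.26 against CPB (edgeR adjusted p = 0.0901) and 0.54 ± 0.26 against sham (edgeR adjusted p = 0.20). Leaving out CPB+Nitrite 2 gave -0.58 against CPB (adjusted p = 0.206) and 0.71 against sham (adjusted p = 0.0657).

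Csf1 (ENSRNOG00000018659, chromosome 2, 195377215 to 195411704 on the minus strand), the macrophage growth factor, measured 80.1, 47.9, 21.8 and 106.3 CPM in CPB+Nitrite and 82.5, 154.5, 76.4 and 183.1 CPM in CPB. In sham it was nearly constant at 25.0, 25.8, 26.3 and 26.5 CPM. The 2 lower and the 2 higher CPB libraries were well apart, and CPB+Nitrite 3 fell below every sham library. The means were 124 ± 53.0 CPM in CPB and 25.9 ± 0.693 CPM in sham (SD, n = 4 each), a log2 change of 2.26 ± 0.42 (SE, edgeR adjusted p = 0.00211). CPB+Nitrite averaged 64.0 ± 36.9 CPM, with -0.95 ± 0.40 against CPB (edgeR adjusted p = 0.139) and 1.31 ± 0.41 against sham (edgeR adjusted p = 0.0722). Without CPB+Nitrite 2 the change was -0.84 against CPB (adjusted p = 0.30) and 1.42 against sham (adjusted p = 0.0502). DESeq2 (1.32, adjusted p = 0.0155) and limma (1.33, adjusted p = 0.0389) called Csf1 in CPB+Nitrite against sham.

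The spread among the libraries of a group was read from the ratio of the highest to the lowest. The highest library exceeded the lowest by 47.2-fold for Ccl2 in CPB+Nitrite and by 1.78-fold in CPB. For Ccl7 these ratios were 31.6 and 2.78, for Ccl5 5.95 and 2.71, for Ccl20 19.4 and 1.79, for Cx3cl1 2.33 and 1.68, and for Csf1 4.88 and 2.40. Without CPB+Nitrite 3 the ratio within CPB+Nitrite was 2.15 for Ccl2, 1.85 for Ccl7 and 2.22 for Csf1. Without CPB+Nitrite 2 it was 1.60 for Cx3cl1 and 5.99 for Ccl20. Leaving out the lowest library lowers such a ratio by construction. The CPB ratios cover all 4 libraries, so they are not set against these. Sham libraries spread by 31.0-fold for Ccl20 and 22.5-fold for Ccl7. Set against the ranges of the other groups, CPB+Nitrite 1 had 5 members in the CPB range and Ccl20 above it. CPB+Nitrite 3 had 4 members in the sham range, Cx3cl1 between the ranges and Csf1 below sham. CPB+Nitrite 2 had Ccl2 and Ccl7 in the CPB range, Ccl5, Ccl20 and Cx3cl1 in the sham range, and Csf1 between. CPB+Nitrite 4 had Ccl7 and Csf1 in the CPB range, Ccl20 in the overlap of both ranges, and Ccl2, Ccl5 and Cx3cl1 between. The labels tell nothing that separates these 4 libraries.

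Among receptors of these ligands, Csf1r and Cx3cr1 fell in CPB against sham, and Ccr2 did not pass the test. Csf1r, the receptor of Csf1 and Il34, measured 3.0, 18.0, 12.05 and 7.47 CPM in CPB+Nitrite, 4.03, 3.13, 1.64 and 2.28 CPM in CPB, and 12.2, 19.0, 9.81 and 27.5 CPM in sham. The CPB and sham groups did not overlap, and CPB+Nitrite 1 alone among the nitrite libraries was within the CPB range. Csf1r averaged 2.77 ± 1.04 CPM in CPB and 17.1 ± 7.93 CPM in sham (SD, n = 4 each), a log2 change of -2.61 ± 0.51 (SE, edgeR adjusted p = 0.00263). Cx3cr1, the fractalkine receptor, measured 0.676, 1.43, 5.39 and 3.07 CPM in CPB+Nitrite, 0.237, 0.486, 0.453 and 0.268 CPM in CPB, and 1.64, 3.22, 1.47 and 4.83 CPM in sham. Every CPB library was below every library of the other groups. The mean was 0.361 ± 0.127 CPM in CPB and 2.79 ± 1.57 CPM in sham (SD, n = 4 each), a log2 change of -2.94 ± 0.65 (SE, edgeR adjusted p = 0.00469).

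In CPB+Nitrite the mean was 10.1 ± 6.41 CPM for Csf1r and 2.64 ± 2.09 CPM for Cx3cr1. The log2 change against CPB was 1.86 ± 0.50 for Csf1r (edgeR adjusted p = 0.0611) and 2.85 ± 0.65 for Cx3cr1 (edgeR adjusted p = 0.0556), so neither passed. DESeq2 called both, with adjusted p of 0.00495 for Csf1r and 0.00104 for Cx3cr1, as did edgeR without CPB+Nitrite 1, at 2.13 (adjusted p = 0.012) and 3.14 (adjusted p = 0.0106). Without CPB+Nitrite 2 the changes were 1.42 for Csf1r (adjusted p = 0.15) and 3.06 for Cx3cr1 (adjusted p = 0.108). Against sham the log2 changes were -0.76 ± 0.47 for Csf1r (edgeR adjusted p = 0.317) and -0.08 ± 0.56 for Cx3cr1 (edgeR adjusted p = 0.937).

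Ccr2, the receptor of Ccl2 and Ccl7, stayed at or below 1 CPM everywhere, with 0.147 to 0.972 CPM in CPB+Nitrite, 0.170 to 0.711 CPM in CPB and 0.241 to 0.725 CPM in sham. Its log2 change was -0.19 ± 0.62 in CPB against sham (edgeR adjusted p = 0.815) and 0.84 ± 0.61 in CPB+Nitrite against CPB (edgeR adjusted p = 0.358). Ccr3 and Ccr6 did not pass the filter on low counts, with at most 0.0445 CPM of Ccr3 and 0.435 CPM of Ccr6 in any library. Ccr1 was not analysed here.

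**Figure D3:**
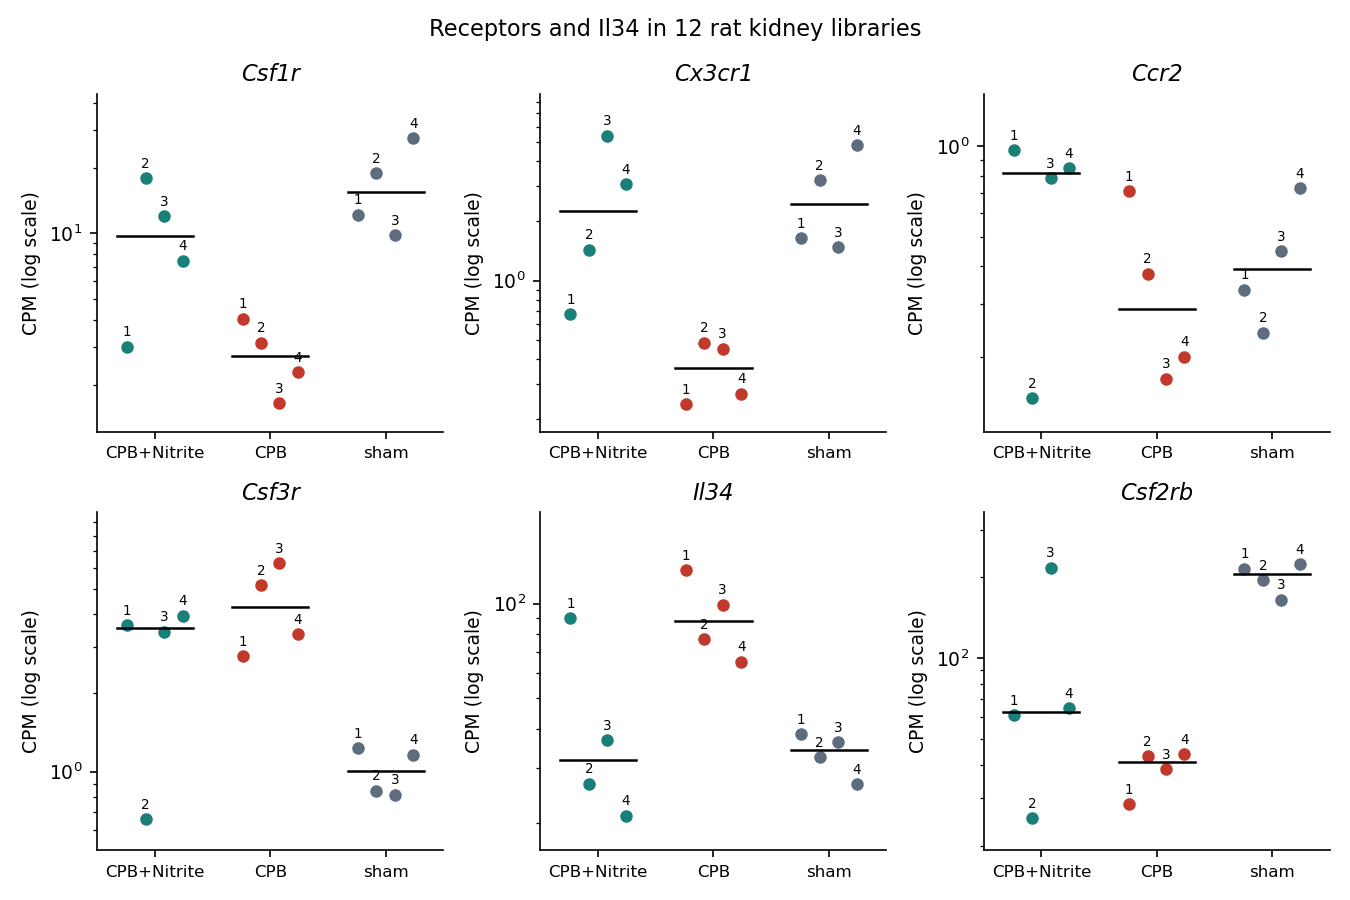
Levels of Csf1r, Cx3cr1, Ccr2, Csf3r, Il34 and Csf2rb in each library in CPM on a log axis, with CPB+Nitrite, CPB and sham from left to right, replicate numbers at the points and bars at group medians. The medians of Csf1r (2.70 CPM) and Cx3cr1 (0.361 CPM) are lowest in CPB and that of Il34 (88.1 CPM) is highest there, and Csf2rb reaches the sham level in CPB+Nitrite 3 alone among the bypass libraries.

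Il34, the second Csf1r ligand and a product of tubule cells, measured 89.6, 26.7, 36.8 and 21.2 CPM in CPB+Nitrite, 127.6, 76.9, 99.2 and 65.3 CPM in CPB, and 38.4, 32.4, 36.2 and 26.7 CPM in sham. CPB and sham did not overlap, and CPB+Nitrite 1 was the only nitrite library above the sham range. The mean was 92.3 ± 27.4 CPM in CPB and 33.4 ± 5.11 CPM in sham (SD, n = 4 each), a log2 change of 1.47 ± 0.39 (SE, edgeR adjusted p = 0.0103). CPB+Nitrite averaged 43.6 ± 31.4 CPM, a log2 change of -1.08 ± 0.38 against CPB (edgeR adjusted p = 0.0956) and 0.38 ± 0.38 against sham (edgeR adjusted p = 0.532). Without CPB+Nitrite 1 the change of Il34 against CPB was -1.75 (edgeR adjusted p = 0.00577), and without CPB+Nitrite 2 it was -0.91 (edgeR adjusted p = 0.225).

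Cell markers were read beside these values. Monocyte and macrophage markers, 15 genes that include Csf1r and Cx3cr1, summed to 208.4 to 305.0 CPM in CPB+Nitrite, 140.9 to 189.9 CPM in CPB and 146.5 to 299.1 CPM in sham. Lyz2 alone gave 42.4 to 168.0 CPM of these sums, and the sums of CPB+Nitrite and CPB did not overlap. Of the 13 tested genes of this list, 2 rose and 4 fell in CPB against sham, where 43.2% of all genes passed in either direction. In CPB+Nitrite against CPB none of the 13 passed, with 11 changes positive and 2 negative. There 6 had groups that did not overlap, against 12.7% of all genes. Neutrophil markers (8 genes) summed to 16.6 to 26.1 CPM in CPB+Nitrite, 11.5 to 22.9 CPM in CPB and 4.30 to 11.4 CPM in sham. Elane was at 0 in every library but CPB 3 (0.0566 CPM). T, NK and innate lymphoid markers (9 of 10 in the table) summed to 40.5 to 110.7 CPM in CPB+Nitrite, 50.9 to 80.7 CPM in CPB and 48.5 to 127.2 CPM in sham. Il17a was at most 0.108 CPM in any library. B cell and dendritic cell markers (8 genes) summed to 10.7 to 16.4 CPM in CPB+Nitrite, 6.24 to 10.4 CPM in CPB and 6.15 to 11.4 CPM in sham. Stromal markers (6 genes) summed to 128.8 to 212.0 CPM in CPB+Nitrite, 46.8 to 118.3 CPM in CPB and 61.9 to 459.4 CPM in sham, and adrenal markers (3 of 5 in the table) to at most 6.63 CPM in any library. The neutrophil sums of CPB and sham were apart by a small margin, 11.45 CPM in the lowest CPB library and 11.36 CPM in the highest sham library. Of all genes tested, 48.2% had CPB and sham groups that did not overlap. The sum of 11.36 CPM was that of sham 1. Mpo, a gene in the neutrophil sum, went the other way, mostly through sham 1. It was 4.88, 1.17, 0 and 0 CPM in sham 1 to 4, and 0.0790 CPM in CPB 1 and 0 in the other CPB libraries. By gene, 4 of 7 tested neutrophil markers rose and 1 fell in CPB against sham, and 2 of 5 lymphoid markers rose. Of B cell and dendritic cell markers 1 of 4 fell, and of stromal markers 2 of 6 fell. The part of any of these cell types in the members' changes was not tested.

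Of 17 other CC and XC chemokines listed, 10 were tested, and in CPB against sham 3 rose and 1 fell, so 4 of 10 passed against 43.2% of all genes. Ccl22, a Ccr4 ligand, averaged 3.74 ± 2.44 CPM in CPB and 0.0971 ± 0.0657 CPM in sham (log2 change 5.22 ± 0.96 SE, edgeR adjusted p = 0.00207). Ccl19, the Ccr7 ligand that guides dendritic cells, averaged 15.4 ± 2.68 CPM in CPB and 3.44 ± 0.775 CPM in sham (2.16 ± 0.45, edgeR adjusted p = 0.0036). Ccl3, which shares receptors with Ccl5, averaged 1.92 ± 1.06 CPM in CPB and 0.486 ± 0.137 CPM in sham (1.98 ± 0.55, edgeR adjusted p = 0.0135), but its gene overlaps Ccl4 on the opposite strand and the strand setting of the counting is not given, so reads of these 2 genes may be mixed. Ccl28, an epithelial chemokine, fell by 1.06 on the log2 scale (edgeR adjusted p = 0.0374), a call that 6 of the 12 single-library omissions ended (without sham 1, 2 or 3, or CPB 2, 3 or 4, adjusted p of 0.0504 to 0.116). In CPB+Nitrite against sham, where 3.85% of all genes rose, Ccl19 was the 1 of these 10 that rose (1.88 ± 0.45, edgeR adjusted p = 0.0426). It passed in 2 of the 12 single-library omissions, those of CPB+Nitrite 2 or CPB+Nitrite 3, and the adjusted p was as high as 0.131 in the others. Against CPB none passed, and the smallest p values belonged to Ccl21, the other Ccr7 ligand (1.39 ± 0.46, edgeR adjusted p = 0.0826), and Ccl22 (-2.03 ± 0.77, edgeR adjusted p = 0.11). For Ccl22, DESeq2 (adjusted p = 0.0463) and edgeR without CPB+Nitrite 1 (-3.48, adjusted p = 0.0116) passed.

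Ccl2, Ccl7, Ccl5 and 7 more of these genes lie within 1.5 Mb of chromosome 10, in a near cluster that begins with Ccl2 and a far one that begins with Ccl5. In the near cluster Ccl11, Ccl12 and Ccl1 did not pass the filter on low counts. In the far cluster the log2 changes in CPB against sham were 2.84 for Ccl5, 0.99 ± 0.54 for Ccl9 (edgeR adjusted p = 0.153), -1.11 ± 0.56 for Ccl6 (edgeR adjusted p = 0.125), 1.98 for Ccl3 and 1.47 ± 0.64 for Ccl4 (edgeR adjusted p = 0.078). Adjacent genes of this family thus did not all pass the test, and Ccl6 had the opposite sign.

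**Figure D4:**
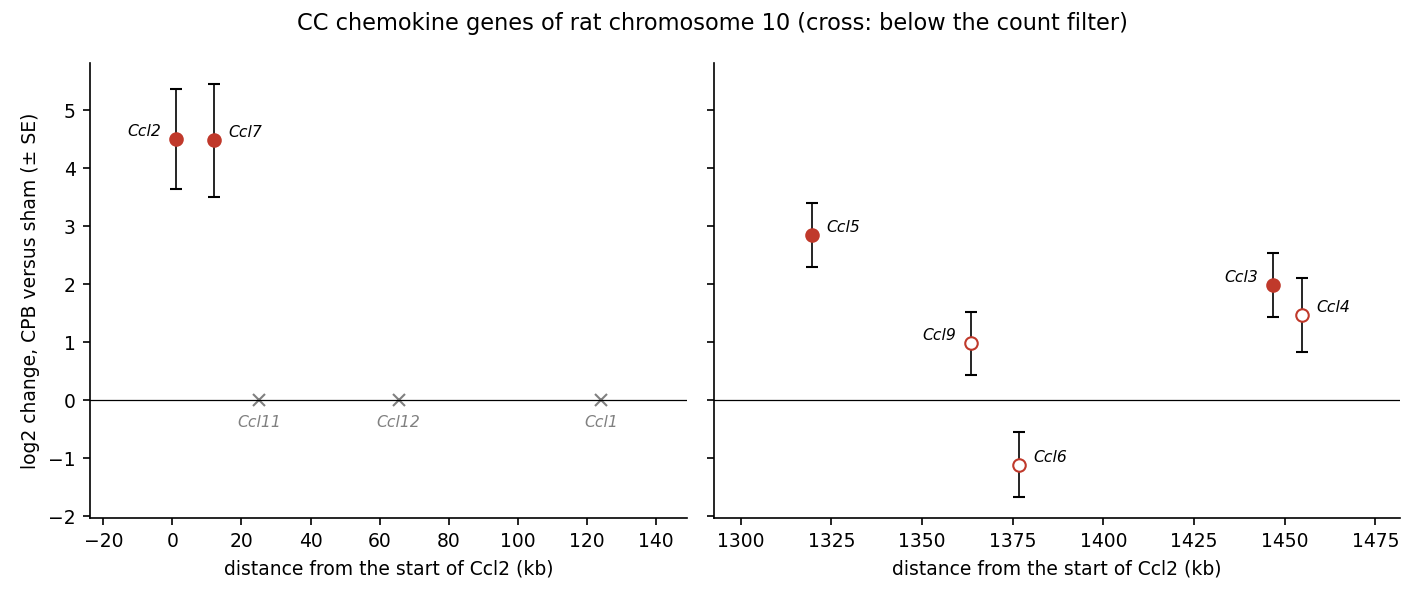
log2 change in CPB versus sham, with its standard error, of CC chemokine genes on rat chromosome 10 against their distance in kb from the start of Ccl2, for the near cluster on the left and the far cluster on the right. Filled points passed an adjusted p of 0.05 and crosses are genes below the filter on low counts. Ccl2 and Ccl7 stand side by side at 4.51 and 4.49.

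Receptors that bind chemokines without attracting cells gave 1 gene higher and 1 lower of 5 tested in CPB against sham. Over all genes 43.2% passed there. Ccrl2, which presents the attractant chemerin, averaged 5.11 ± 1.89 CPM in CPB and 0.879 ± 0.147 CPM in sham (log2 change 2.54 ± 0.44 SE, edgeR adjusted p = 0.00172), and rose in CPB+Nitrite against sham as well (1.93 ± 0.44, edgeR adjusted p = 0.0391), a call that held in 2 of the 12 omissions (CPB+Nitrite 2 or CPB+Nitrite 3, adjusted p up to 0.131 in the others). Ackr4, which clears Ccl19 and Ccl21, averaged 0.164 ± 0.132 CPM in CPB and 0.622 ± 0.109 CPM in sham (-1.81 ± 0.54, edgeR adjusted p = 0.0183), and without CPB 2 or CPB 3 its adjusted p was 0.0545 or 0.0539. None of the 5 passed in CPB+Nitrite against CPB, where Ackr3 (0.58, edgeR adjusted p = 0.153) and Ackr4 (1.04, edgeR adjusted p = 0.224) had the smallest p.

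Of the other colony-stimulating factors and their receptors, 5 were tested in CPB against sham, and 2 rose and 1 fell. The share of all genes that passed was 43.2%. Csf3r, the granulocyte factor receptor and a neutrophil marker, averaged 4.40 ± 1.63 CPM in CPB and 1.01 ± 0.212 CPM in sham (log2 change 2.11 ± 0.48 SE, edgeR adjusted p = 0.00544), and Il34 was the other that rose. Csf2rb, the common beta chain of the Csf2, Il3 and Il5 receptors, measured 61.2, 25.2, 216.2 and 64.9 CPM in CPB+Nitrite, 28.5, 43.1, 38.6 and 43.8 CPM in CPB, and 214.7, 194.4, 164.5 and 223.4 CPM in sham. CPB+Nitrite 3 was at the sham level and the other bypass libraries were far below it. Csf2rb fell in CPB against sham (-2.37 ± 0.49, edgeR adjusted p = 0.00338) and did not pass in CPB+Nitrite against CPB (1.26 ± 0.47, edgeR adjusted p = 0.11). In CPB+Nitrite against sham none of the 5 passed, Csf3r coming nearest (1.52 ± 0.48, edgeR adjusted p = 0.0739), then Csf3 (3.25 ± 1.26, edgeR adjusted p = 0.127).

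Genes that process or hold chemokines were tested for 8 of 9 listed, and 3 rose in CPB against sham with none lower. Of all genes 43.2% passed in this comparison. Adam17, the sheddase that releases Cx3cl1 and Csf1 from the membrane, averaged 60.9 ± 18.6 CPM in CPB and 25.4 ± 2.82 CPM in sham (log2 change 1.26 ± 0.25 SE, edgeR adjusted p = 0.00263). Sdc4, a heparan sulphate proteoglycan, averaged 792 ± 105 CPM in CPB and 283 ± 110 CPM in sham (1.49 ± 0.36, edgeR adjusted p = 0.00673). Mmp14, a membrane metalloprotease, averaged 32.5 ± 6.15 CPM in CPB and 17.6 ± 2.87 CPM in sham (0.89 ± 0.26, edgeR adjusted p = 0.0176), and 0.0539 without sham 2. In CPB+Nitrite none of the 8 passed against CPB or against sham. The nearest against CPB were Mmp2 (1.54 ± 0.53, edgeR adjusted p = 0.0893) and Adam17 (-0.64 ± 0.24, edgeR adjusted p = 0.112), and against sham Sdc4 (1.32 ± 0.35, edgeR adjusted p = 0.0522) and Mmp14 (0.80 ± 0.26, edgeR adjusted p = 0.0846).

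Transcription factors and inhibitors upstream of inflammatory chemokines rose in CPB against sham for 10 of 12 tested, with none lower. Over all genes 21.7% rose. The list was chosen with earlier results of these data known, so its counts here are descriptions. Irf7, an interferon response factor, averaged 568 ± 170 CPM in CPB and 29.1 ± 16.2 CPM in sham (log2 change 4.29 ± 0.57 SE, edgeR adjusted p = 0.000968). The NF-kappaB subunit genes Nfkb1 (2.04 ± 0.30, edgeR adjusted p = 0.00107), Nfkb2 (1.96 ± 0.30, edgeR adjusted p = 0.00107) and Rela (1.37 ± 0.21, edgeR adjusted p = 0.00109) rose with it. Of the AP-1 subunit genes, named after their values were seen because of the Ccl7 match, Jun rose (2.39 ± 0.59, edgeR adjusted p = 0.00767) and Fos did not pass (1.39 ± 0.73, edgeR adjusted p = 0.137). In CPB+Nitrite 8 of the 12 rose against sham, where 3.85% of all genes rose. The 8 included Irf7 (2.91 ± 0.54, edgeR adjusted p = 0.0278), Cebpb (1.73 ± 0.33, edgeR adjusted p = 0.0287), Rela (0.91 ± 0.21, edgeR adjusted p = 0.0402) and Nfkb1 (1.26 ± 0.29, edgeR adjusted p = 0.0402). Of the 12 single-library omissions, 7 kept Irf7 and Cebpb past the threshold (sham 3, any 1 of the 4 CPB libraries, CPB+Nitrite 2 or CPB+Nitrite 3), 3 kept Nfkb1 (sham 3, CPB+Nitrite 2 or CPB+Nitrite 3) and 2 kept Rela (CPB+Nitrite 2 or CPB+Nitrite 3). In the others the adjusted p went up to 0.109 for Irf7 and Cebpb and to 0.131 for Nfkb1 and Rela. None passed against CPB, where Nfkb2 (-0.91 ± 0.29, edgeR adjusted p = 0.0765) and Nfkb1 (-0.78 ± 0.29, edgeR adjusted p = 0.104) had the smallest p. Without CPB+Nitrite 1 both passed, Nfkb2 at -1.16 (edgeR adjusted p = 0.0217) and Nfkb1 at -1.11 (edgeR adjusted p = 0.0188), and DESeq2 called Nfkb2 as well (-0.93, adjusted p = 0.0257). Irf7 was 292.9, 295.4, 43.2 and 242.0 CPM in the CPB+Nitrite libraries, against 343.1 to 754.8 CPM in CPB and 17.1 to 52.3 CPM in sham, so CPB+Nitrite 3 was again the one within the sham range.

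In CPB against sham, where 21.7% of all genes rose, RNA-binding proteins that destabilise inflammatory mRNA rose for 5 of 5 tested. This list too was chosen with earlier results of these data known. The 5 included Zfp36l1 (log2 change 1.65 ± 0.38 SE, edgeR adjusted p = 0.00594), Zc3h12a, the nuclease regnase-1 known to cut inflammatory transcripts (1.03 ± 0.27, edgeR adjusted p = 0.00944), Rc3h1, known as roquin-1 (1.11 ± 0.31, edgeR adjusted p = 0.0137), and Zfp36, tristetraprolin (1.54 ± 0.46, edgeR adjusted p = 0.0172, and 0.0512 without sham 1). In CPB+Nitrite against sham, where 3.85% of all genes rose, 2 of the 5 rose, Zc3h12a (2.27-fold, edgeR adjusted p = 0.0391) and Zfp36 (3.86-fold, edgeR adjusted p = 0.0415). Single-library omissions kept Zc3h12a in 4 of 12 (sham 3, CPB 1, CPB+Nitrite 2 or CPB+Nitrite 3) and Zfp36 in 3 (sham 3, CPB+Nitrite 2 or CPB+Nitrite 3), with adjusted p up to 0.131 and 0.126 in the others. Against CPB none passed, with Rc3h1 (-0.74 ± 0.31, edgeR adjusted p = 0.135) and Zfp36l1 (-0.34 ± 0.37, edgeR adjusted p = 0.549) having the smallest p.

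The genes whose pattern was most like each member were read from Pearson's r of log2 CPM over the 12 libraries among 12111 genes with a mean of at least 2 CPM. The libraries are shared and the 3 group means are part of every r, so these values are descriptions. Nearest to Ccl2 were Ccl7 (r = 0.970), Uxs1 (0.962) and RT1-S3, a class I histocompatibility gene (0.961). Nearest to Ccl7 were the neutrophil chemokine Cxcl1 (0.973), Ccl2 (0.970) and Tnfaip3, the NF-kappaB inhibitor A20 (0.969). Ccl5 was most like Tbc1d20 (0.968), Riok3 (0.961) and Chrng (0.959), and Ccl20 most like Rcan1 (0.950), Tnfrsf12a (0.931) and Csrp3 (0.926). Among the genes most like Cx3cl1 were Eppk1 (0.976) and Ap2b1 (0.974), and Csf1 was most like Wdr75 (0.969), Rhbdf2, which escorts Adam17 to the cell surface (0.962), and Clu (0.960). Among the 15 pairs of members r was highest for Ccl2 with Ccl7 (0.970) and lowest for Ccl2 with Ccl20 (0.509).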

How the data were processed

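RNA-seq was analysed from 12 rat kidney samples, grouped by the treatment label. Per the submitters' processing notes, the tools included Salmon 1.2.1, cutadapt 1.18, bcl2fastq 2.19 and R 3.5.1, and the genome build was mRatBN7.2. The deposited count table holds the authors' estimated counts per Ensembl gene (33.1% of non-zero values not whole, tolerance 1e-06). The second deposited table holds the same values as a signal scaled by 1 factor per library, with symbols and coordinates, and served for names, coordinates and the choice of rows. Per the labels' protocols the libraries were strand-specific, and the strand setting of the counting is not given in the sources used here.

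Estimated counts were rounded. edgeR 4.0.16 (R 4.3.3) fitted all 12 libraries (TMM, filterByExpr with a count minimum of 10, 14664 genes, two-sided quasi-likelihood test, Benjamini-Hochberg over all genes). The standard error is the log2 change divided by the root of F. DESeq2 1.42.0, limma 3.58.1 (voom with sample weights), other scalings and filters, a replicate block and omission of each library were alternatives. Levels are library-wide CPM without length correction, so levels are compared within a gene only.

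The members and gene lists were chosen with earlier results of these data known. From each list up to 4 genes past the threshold, or else up to 2, were named by smallest p. Some genes that these rules would name are not reported here.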

Additional observations from a re-analysis of the deposited data

Results flagged for a closer look

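Among 30 groups of 4 libraries examined (the 6 members, the receptors Ccr2, Cx3cr1 and Csf1r, and Il34 in 3 groups), 2 held 1 library whose gap to its nearest neighbour exceeded Dixon's critical share of the group's range. Chance gives about 1 such group in 20. Ccl7 in CPB 2 was 23.59 CPM, with the other CPB libraries at 8.49 to 9.40 CPM. Ccl7 in sham 3 was 1.676 CPM, with the other sham libraries at 0.0745 to 0.290 CPM.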

How the results depend on the processing

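Ccl2, Ccl7, Ccl5, Cx3cl1 and Csf1 passed in CPB against sham under all 20 alternatives run. Over all genes that comparison gave 4692 to 8997 calls, and scaling by total counts alone turned its split from 3184 higher and 3148 lower to 2281 higher and 4269 lower, with the median of all genes moving from -0.05 to -0.24. In CPB+Nitrite against CPB the genes called were 2235 with DESeq2, 1 with limma and 0 to 2865 with 1 library left out (2865 without CPB+Nitrite 1), and members called were 2 with DESeq2 and 0 to 2 with 1 library left out. In CPB+Nitrite against sham, genes called were 2144 with DESeq2, 2870 with limma, 28 with the replicate block, 0 with only the 2 groups compared and 0 to 2976 with 1 library left out (2976 without CPB+Nitrite 3), and members called were 3 with DESeq2, 3 with limma, 0 with the block, 0 with only the 2 groups and 0 to 4 with 1 library left out. With the block Ccl2 was 3.88 (adjusted p = 0.0747) and Ccl7 4.17 (adjusted p = 0.0866). The block left 6229 genes and 5 members called in CPB against sham, and 0 of each in CPB+Nitrite against CPB. The replicate numbers share no stated litter, batch or day, and of 12 same-numbered pairs 3 had deviations correlated above 0.1 (range -0.107 to 0.381), nor did every library correlate best with its own number, so they were not taken to pair samples.

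Signs turned only in fits with 1 library left out, none past the threshold. The ranges over those fits were -0.77 to 0.14 for Ccr2 in CPB against sham (0.14 without sham 4, 0.03 without CPB 3), -0.77 to 0.13 for Ccl7 in CPB+Nitrite against CPB (0.13 without CPB 2, 0.04 without CPB+Nitrite 3), -1.12 to 0.14 for Ccl20 there (0.14 without CPB+Nitrite 2, 0.04 without CPB+Nitrite 3), -0.69 to 0.32 for Cx3cr1 in CPB+Nitrite against sham (0.32 without sham 4, 0.22 without CPB+Nitrite 1, 0.13 without CPB+Nitrite 2) and -0.26 to 0.61 for Il34 there (-0.26 without CPB+Nitrite 1). The causes were not tested. Low reads limit Ccl7 and Ccl5 in sham (2 to 41 and 9 to 20 reads).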

Other observations

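Ratios of CPM between members within a library depend on transcript length in themselves, and only their differences between libraries are read here. The ratio of Ccl7 to Ccl2 was 0.216 to 0.423 in CPB+Nitrite, 0.171 to 0.374 in CPB and 0.0715 to 0.455 in sham. The ratio of Ccl20 to Ccl2 was 0.0943 in CPB+Nitrite 2 and 14.5 in CPB+Nitrite 3, against 0.796 to 1.92 in CPB and 0.772 to 18.3 in sham. The ratio of Csf1 to Il34, the ligands of Csf1r, was 0.893, 1.79, 0.592 and 5.02 in CPB+Nitrite, 0.646, 2.01, 0.770 and 2.80 in CPB, and 0.650 to 0.995 in sham. CPB+Nitrite 4, CPB 4, CPB 2 and CPB+Nitrite 2 had the highest values of this last ratio. These ratios were not tested.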
